A study of Rattus norvegicus with 20 samples.

Results

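Acyl-CoA thioesterases (the Acot family) hydrolyse acyl-CoA esters to a free fatty acid and coenzyme A, the reverse of the activation step that acyl-CoA synthetases catalyse. The members described here are Acot1, Acot2, Acot3, Acot4, Acot7, Acot8, Acot12 and Acot13, chosen as every probe set of the deposited table whose platform annotation carries a listed symbol. That rule found 8 of the 14217 genes that the array measures under a symbol of their own, through 12 of its 31099 probe sets, and all 12 passed the filter on low values. Of these, 11 carried 1 member symbol, and 1 carried the symbols of both Acot2 and Acot1 and is attributed to neither gene.

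The study compared 3 lignans of sesame seed for their effect on hepatic gene expression and fatty acid oxidation in male Sprague-Dawley rats. The rats arrived at 4 weeks of age, were acclimatised for 7 d and then received 1 of 4 experimental diets for 15 d. These held sesamin, episesamin or sesamolin at 0.2%, or no lignan (the lignan-free diet). Liver RNA of 5 of the 7 rats of each diet was hybridised, 1 Affymetrix array per rat, because the heaviest and the lightest rat of each diet had been set aside. All 20 rats shared strain, sex and feeding time, and each lignan was fed at a single dose. Sesamin and episesamin have the same connectivity and differ in the configuration of a carbon that bears a methylenedioxyphenyl group. In sesamolin an ether oxygen separates a methylenedioxyphenyl group from the furofuran rings.

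Acot genes fall into a pair of structural classes. Type I enzymes (Acot1 to Acot4 here) are closely related proteins of the alpha/beta hydrolase fold, encoded side by side in rodents and placed in different compartments, whereas type II enzymes (Acot7, Acot8, Acot12 and Acot13) share the unrelated hotdog fold. In rodent liver several type I genes are known targets of the peroxisome proliferator-activated receptor alpha (PPAR alpha), the fatty acid sensor that also drives peroxisomal and mitochondrial beta-oxidation genes. By setting free fatty acid and coenzyme A, thioesterases are held to regulate the size of the acyl-CoA pool in each compartment.

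Mean raw intensity per array lay between 159 and 271. It averaged 236 ± 27.6 on the sesamin diet, 213 ± 36.1 on episesamin, 221 ± 45.3 on sesamolin and 247 ± 29.2 on the lignan-free diet (SD, n = 5 each). No lignan diet differed detectably from the lignan-free diet in this brightness (two-sided exact permutation test, p = 0.54, 0.151 and 0.262 for sesamin, episesamin and sesamolin, smallest possible p 0.00794). Arrays of the same diet correlated at 0.948 to 0.975 and no columns were identical. All 10 hepatocyte markers listed were on the array, and their summed level was 90268 to 94154 on sesamin, 82484 to 91242 on episesamin, 86501 to 95956 on sesamolin and 91893 to 97751 on the lignan-free diet, as the liver label requires. Levels below are quantile-normalized intensities, on which probe sets cannot be ranked against each other. Log2 differences, on the scale log2(intensity + 5.85), come with the SE of a limma model of all 4 diets, and a probe set is called when its Benjamini-Hochberg adjusted p, taken over 21067 tested probe sets, is below 0.05. Precision is limited by the number of rats, and all p-values measure the spread between rats within this single feeding experiment.

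Over the 4 diets, 9 of the 12 Acot probe sets, covering 6 genes by their own symbol, were called by the F test, against 2.94% of all tested probe sets. Against the lignan-free diet, 7 Acot probe sets were higher with sesamin, where 0.256% of all tested probe sets were called higher. With episesamin 10 were higher, against 1.96% of all, and with sesamolin 9 were higher, against 1.93% of all. All 5 lignan-fed rats lay above all 5 lignan-free rats at 7, 10 and 9 Acot probe sets for sesamin, episesamin and sesamolin, against 0.983%, 3.13% and 2.96% of all. No Acot probe set was called lower with a lignan, where 0%, 1.21% and 1.72% of all tested probe sets were. The median log2 difference of the 12 probe sets was 1.55 for sesamin, 2.26 for episesamin and 2.24 for sesamolin, while the medians of all tested probe sets were -0.0049, -0.016 and -0.011. The 3 comparisons share the lignan-free arrays, so they are not independent of each other. In whole liver, a change in the number of cells of a type and a change in RNA per cell cannot be told apart.

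**Figure D1:**
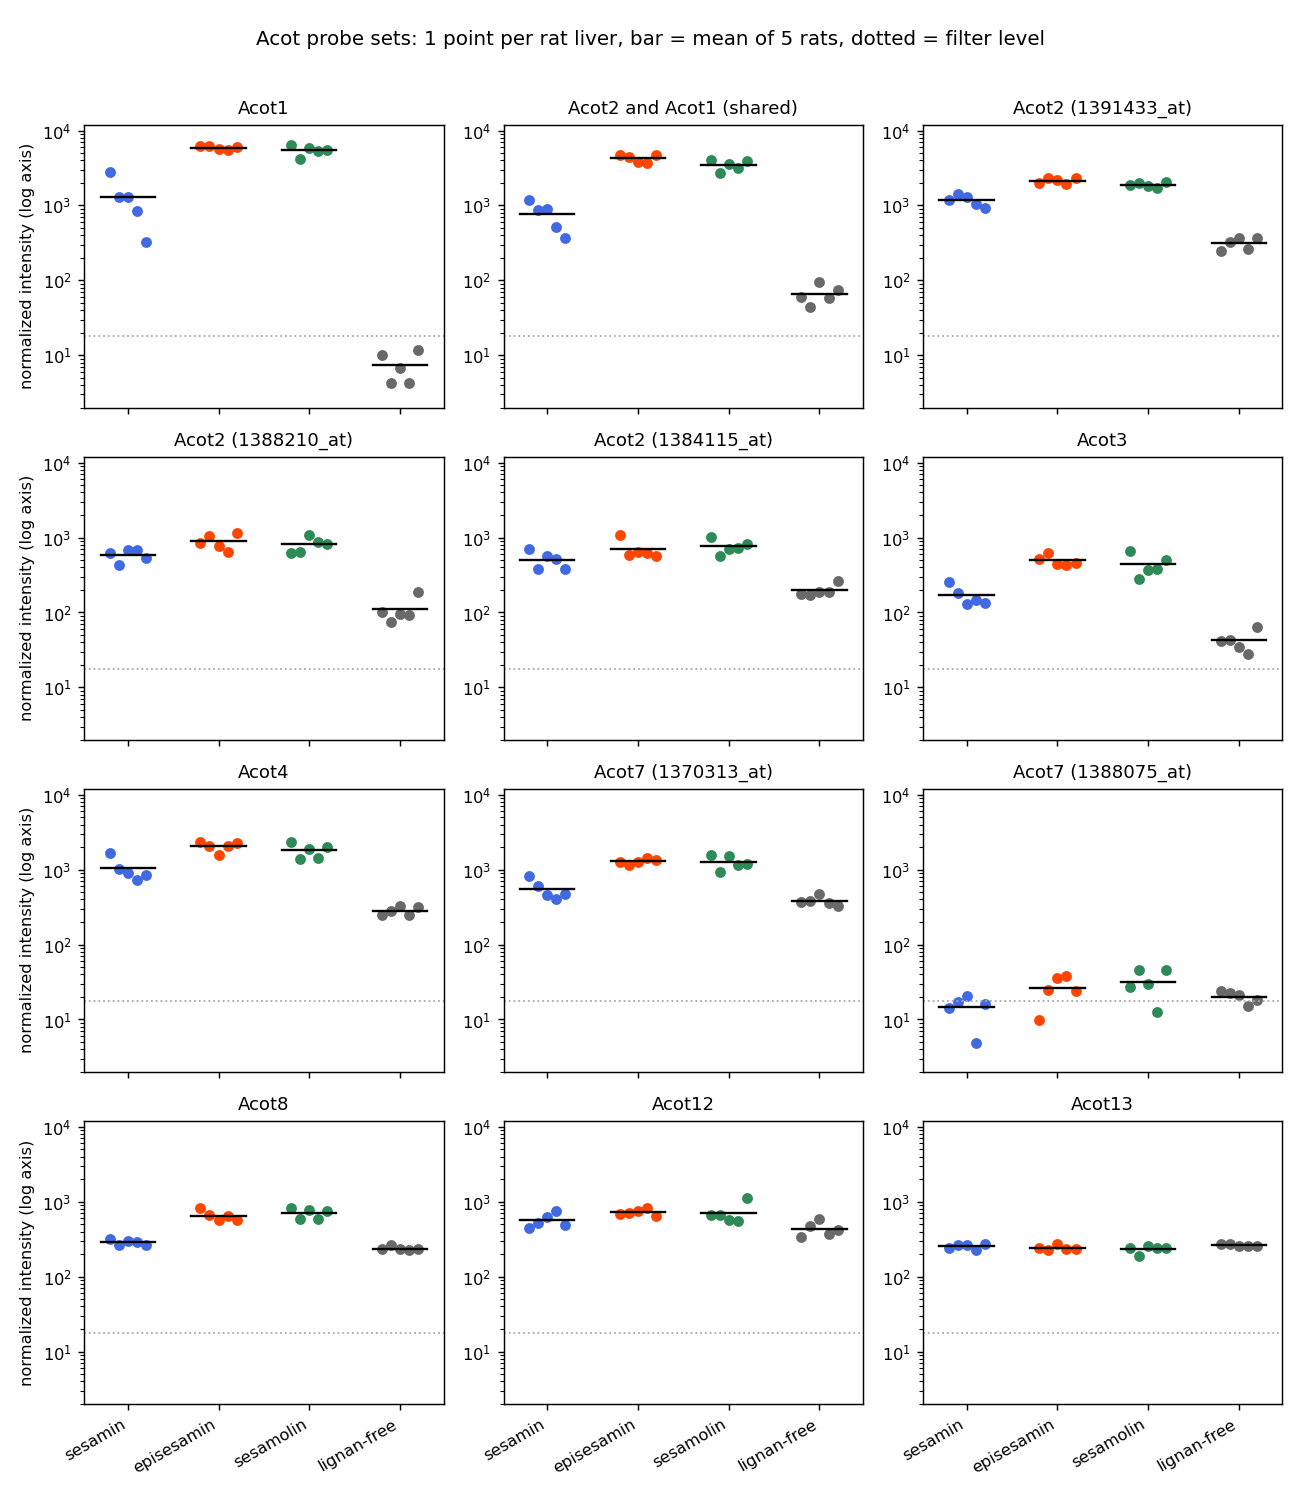
Normalized intensity (log axis) of each of the 12 Acot probe sets in every rat, 5 rats per diet; the bar is the mean of a diet and the dotted line the filter level of 17.8. The lignan-free points lie below all lignan points for Acot1, the shared probe set, the 3 Acot2 probe sets, Acot3 and Acot4, while the diets overlap for Acot13.

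Acot1 (1398250_at), the cytosolic long-chain acyl-CoA thioesterase, gave the largest positive difference of all 21067 tested probe sets for each of the 3 lignans. The 5 sesamin livers had intensities of 2804, 1290, 1279, 848 and 330. The 5 episesamin livers had 6181, 6181, 5588, 5494 and 5969, and the 5 sesamolin livers 6444, 4135, 5862, 5343 and 5576. The lignan-free livers had 10.1, 4.24, 6.70, 4.33 and 11.7, each below the filter level of 17.8. Every lignan-fed rat was thus far above every lignan-free rat, and all sesamin rats were below all episesamin and sesamolin rats. The fitted difference from the lignan-free diet was 6.36 ± 0.36 for sesamin (adjusted p = 6.88e-09), 8.83 ± 0.36 for episesamin (adjusted p = 1.99e-11) and 8.71 ± 0.36 for sesamolin (adjusted p = 2.69e-11). Since the lignan-free signal is near the offset, these sizes depend on it: over all alternative settings they ran from 5.53 to 7.27, 7.99 to 9.75 and 7.87 to 9.64. Set against the filter level instead, Acot1 was at least 59.0-fold higher with sesamin, at least 329-fold higher with episesamin and at least 303-fold higher with sesamolin.

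Of the 12 probe sets, that of Acot1 varied most among the sesamin rats. Its highest sesamin rat had 8.50 times the intensity of its lowest, a log2 SD of 1.12, against 0.08 among the episesamin rats, 0.24 among the sesamolin rats and 0.37 among the lignan-free rats. The SE of 0.36 given for Acot1 pools these unequal spreads. That pooled SE is too small for comparisons that include sesamin and too large for those that do not. The shared probe set showed the same ordering of sesamin rats at its ends, with replicate 1 highest and replicate 5 lowest. On the array of sesamin replicate 1, 7 of the 12 Acot probe sets had their highest value of that diet. That array had a mean raw intensity of 243, where the sesamin arrays ran from 192 to 268. Sesamolin replicate 1 was likewise highest of its diet at 7 Acot probe sets, and sesamolin replicate 2, the dimmest array at 159, was lowest at 8. The part of array brightness in these ranks was not tested. Without the 6 arrays of a mean raw intensity below 200, Acot counts against the lignan-free diet were 7, 9 and 9 for sesamin, episesamin and sesamolin, and without the 4 arrays numbered 1 they were also 7, 9 and 9.

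The shared probe set 1388211_s_at, annotated to both Acot2 and Acot1, cannot be assigned to either gene. It read 1179, 876, 902, 523 and 362 with sesamin. Episesamin rats had 4697, 4479, 3841, 3702 and 4767, and sesamolin rats 4049, 2745, 3542, 3190 and 3949. The lignan-free rats had 59.4, 43.7, 93.7, 57.9 and 74.2. The 4 diets fell into 3 separate ranges, with episesamin and sesamolin overlapping at the top, sesamin between and lignan-free at the bottom. Its difference from the lignan-free diet was the next largest after Acot1 among all tested probe sets for each lignan, at 3.36 ± 0.25 for sesamin (adjusted p = 1.73e-07), 5.94 ± 0.25 for episesamin (adjusted p = 1.99e-11) and 5.64 ± 0.25 for sesamolin (adjusted p = 3.76e-11).

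Acot2 is the mitochondrial type I enzyme, which acts on long-chain acyl-CoA in the matrix. By its annotation the array held 3 probe sets for Acot2 alone. Each was higher with all 3 lignans, with no overlap between lignan-fed and lignan-free rats. Probe sequences were not at hand. Whether probe sets of 1 type I gene also pick up RNA of another, such as Acot1, was therefore not tested. Probe set 1391433_at had 1184, 1420, 1299, 1057 and 928 with sesamin and 1971, 2338, 2186, 1914 and 2304 with episesamin. It had 1878, 1963, 1833, 1693 and 2078 with sesamolin, against 248, 324, 365, 263 and 364 without lignan. Its log2 difference from the lignan-free diet was 1.89 ± 0.13 for sesamin, 2.77 ± 0.13 for episesamin and 2.59 ± 0.13 for sesamolin (adjusted p = 7.06e-08, 7.31e-11 and 1.95e-10). The other probe sets gave differences of another size. Probe set 1388210_at had 618, 424, 687, 683 and 541 with sesamin and 842, 1055, 775, 641 and 1155 with episesamin. It had 615, 638, 1097, 879 and 812 with sesamolin, against 102, 74.4, 95.2, 93.3 and 190 without lignan. The 3 lignans overlapped each other here, well above the lignan-free rats, with differences of 2.40 ± 0.23 for sesamin, 2.98 ± 0.23 for episesamin and 2.84 ± 0.23 for sesamolin (adjusted p = 5.42e-06, 5.11e-08 and 1.1e-07). Probe set 1384115_at had 701, 383, 574, 511 and 376 with sesamin and 1071, 577, 642, 612 and 565 with episesamin. It had 1014, 560, 696, 719 and 817 with sesamolin, against 177, 173, 189, 188 and 264 without lignan. The lignans again overlapped each other and not the lignan-free rats, and the differences were 1.31 ± 0.20, 1.75 ± 0.20 and 1.90 ± 0.20 for sesamin, episesamin and sesamolin. The sesamin call of 1384115_at (adjusted p = 0.00244) was lost without quantile normalization, at an adjusted p of 0.053 after median scaling and 0.172 with unscaled arrays.

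Acot3 and Acot4 are peroxisomal type I enzymes. Acot3 (1378169_at), known in mouse for long-chain acyl-CoA, had 257, 183, 128, 145 and 135 with sesamin and 524, 625, 437, 433 and 455 with episesamin. It had 656, 283, 372, 383 and 507 with sesamolin, against 41.7, 43.2, 34.5, 27.7 and 64.9 without lignan. The sesamin range stood apart from the ranges of both other lignans and from that of the lignan-free rats. Acot3 differed from the lignan-free diet by 1.86 ± 0.23 with sesamin, 3.41 ± 0.23 with episesamin and 3.20 ± 0.23 with sesamolin (adjusted p = 0.000185, 1.06e-08 and 2.87e-08). Acot4 (1377037_at), which in mouse hydrolyses succinyl-CoA and related dicarboxylic CoA esters, had 1683, 1034, 893, 719 and 851 with sesamin and 2311, 2049, 1558, 2049 and 2296 with episesamin. It had 2344, 1365, 1895, 1430 and 2009 with sesamolin, against 246, 284, 329, 249 and 316 without lignan. All lignan-fed rats were above all lignan-free rats, but the highest sesamin rat lay within the ranges of both other lignans. The differences of Acot4 from the lignan-free diet were 1.79 ± 0.20, 2.82 ± 0.20 and 2.62 ± 0.20 for sesamin, episesamin and sesamolin (adjusted p = 4.64e-05, 1.77e-08 and 5.36e-08).

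Acot8 (1368206_at) is a peroxisomal enzyme of the type II class with a broad range of substrates, including bile acid CoA esters. With sesamin its intensities were 319, 265, 298, 290 and 262, close to the 233, 262, 231, 226 and 233 of the lignan-free rats. Episesamin rats had 819, 662, 562, 644 and 578, and sesamolin rats 827, 587, 776, 593 and 748, all above every sesamin and every lignan-free rat. Acot8 was higher than on the lignan-free diet by 1.43 ± 0.12 with episesamin (adjusted p = 1.55e-07) and by 1.54 ± 0.12 with sesamolin (adjusted p = 6.04e-08). The sesamin difference was 0.26, with a 95% interval of 0.02 to 0.51, and did not pass (adjusted p = 0.71).

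Acot7, a cytosolic type II enzyme best known as the acyl-CoA hydrolase of brain, showed the same division of the diets by probe set 1370313_at. Sesamin rats had 812, 596, 457, 405 and 479, overlapping the 370, 384, 471, 364 and 327 of the lignan-free rats. Episesamin rats had 1279, 1139, 1250, 1451 and 1345, and sesamolin rats 1552, 941, 1542, 1160 and 1175, all above every sesamin and lignan-free rat. Acot7 was higher by 1.74 ± 0.17 with episesamin (adjusted p = 2.16e-06) and by 1.70 ± 0.17 with sesamolin (adjusted p = 3.19e-06), while the sesamin difference of 0.48, with a 95% interval of 0.12 to 0.84, did not pass (adjusted p = 0.551). The other Acot7 probe set, 1388075_at, lay near the filter level on all diets. It had 14.2, 17.0, 20.3, 4.86 and 16.1 with sesamin, and 9.92, 24.5, 35.8, 37.8 and 23.9 with episesamin. It had 26.8, 45.7, 29.9, 12.7 and 45.2 with sesamolin, against 23.7, 22.3, 21.5, 15.2 and 18.2 without lignan. All diets overlapped, with means of 14.5 ± 5.83, 26.4 ± 11.2, 32.1 ± 13.8 and 20.2 ± 3.45 on sesamin, episesamin, sesamolin and lignan-free (SD, n = 5 each). It was not called over the 4 diets (adjusted p = 0.32), so the probe sets of Acot7 disagree.

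Acot12 (1369485_at), the cytosolic acetyl-CoA hydrolase of liver, had a higher mean with each lignan than without, by differences near the threshold or short of it. Its intensities were 441, 514, 620, 759 and 488 with sesamin, 694, 705, 757, 812 and 640 with episesamin, 670, 672, 562, 548 and 1130 with sesamolin, and 333, 467, 584, 370 and 416 without lignan. Only the episesamin rats lay wholly above the lignan-free rats. The episesamin difference of 0.75 ± 0.19 passed (adjusted p = 0.0378), but it fell short in 18 of 36 alternatives. The sesamolin difference of 0.69 ± 0.19 did not pass (adjusted p = 0.0508), and it did pass in 8 of 36 alternatives. Sesamin differed by 0.37, with a 95% interval of -0.03 to 0.77 (adjusted p = 0.768), and over the 4 diets Acot12 was not called (adjusted p = 0.0782).

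Acot13 (1388497_at), also named Them2, is a small hotdog thioesterase associated with mitochondria. Its intensities were 241, 268, 267, 229 and 275 with sesamin, and 244, 230, 269, 234 and 233 with episesamin. They were 242, 191, 257, 244 and 239 with sesamolin, against 275, 274, 256, 258 and 255 without lignan. The diets overlapped, and Acot13 averaged 256 ± 19.9 with sesamin, 242 ± 16.1 with episesamin, 235 ± 25.3 with sesamolin and 264 ± 10.2 without lignan (SD, n = 5 each). The differences from the lignan-free diet were -0.04, -0.12 and -0.17, with 95% intervals of -0.23 to 0.14, -0.31 to 0.07 and -0.36 to 0.02. None passed (adjusted p = 0.978, 0.524 and 0.339).

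**Figure D2:**
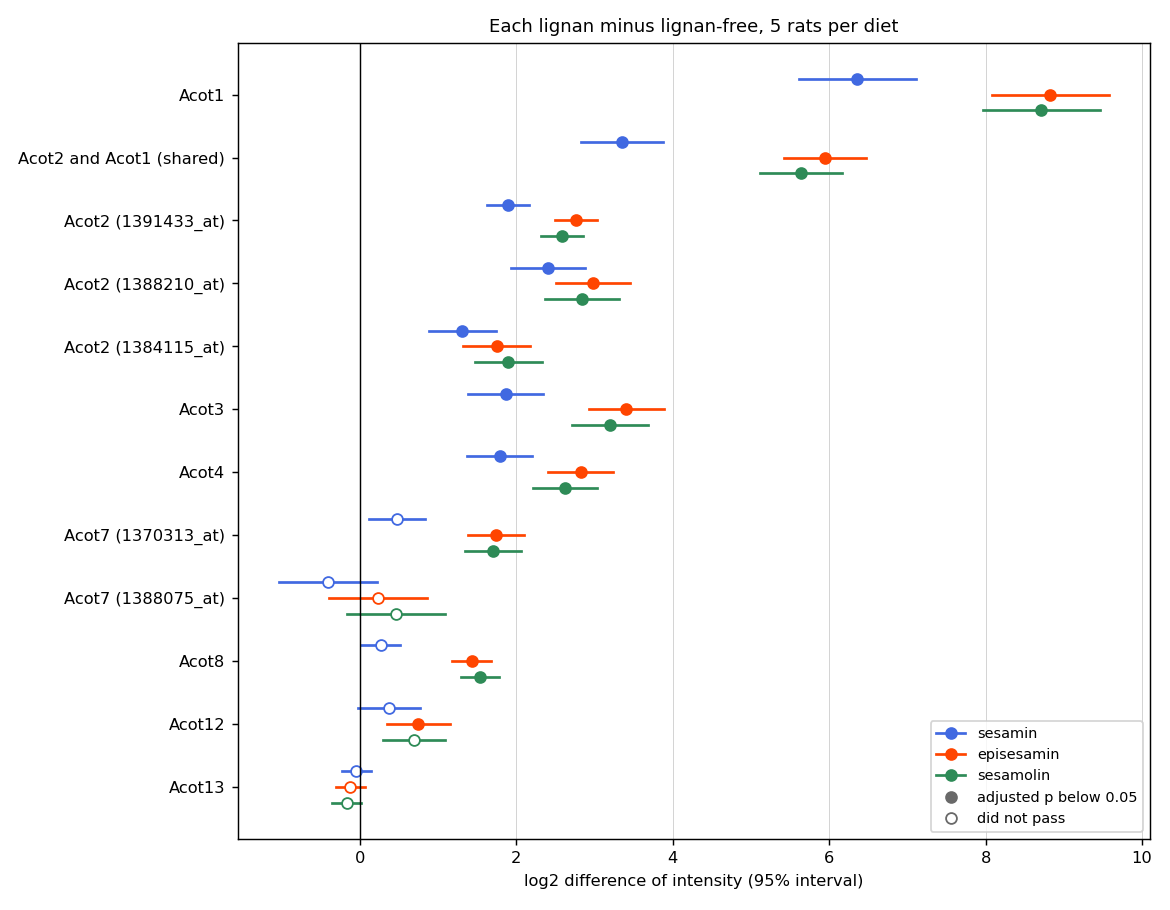
Log2 difference in intensity of each lignan diet minus the lignan-free diet for the 12 Acot probe sets, with 95% intervals (limma, 5 rats per diet); filled points have an adjusted p below 0.05. Acot1 stands farthest right, at 6.36, 8.83 and 8.71, and Acot7 (1370313_at) and Acot8 have filled points for episesamin and sesamolin but open ones for sesamin.

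Episesamin and sesamin were fed at the same dose for the same time, and 3 pairs of lignans were compared in all. Episesamin gave higher values than its epimer at 7 of the 12 Acot probe sets, where 0.617% of all tested probe sets were higher, and lower values at none, where 0.214% of all were lower. At 6 Acot probe sets the epimers did not overlap, all 5 episesamin rats being above all 5 sesamin rats, as at 1.82% of all. The shared probe set differed by 2.59 ± 0.25 (adjusted p = 7.43e-05), the largest increase of all tested probe sets in this comparison. Acot1 differed by 2.47 ± 0.36 (adjusted p = 0.00156), which is 5.54-fold with a 95% interval of 3.30 to 9.31. That interval rests on the SE pooled over the 4 diets. The log2 SD of Acot1 was 1.12 with sesamin and 0.08 with episesamin, so the interval is too narrow for this pair. Over the alternatives the adjusted p of Acot1 reached 0.0491. Acot3 was higher by 1.54 ± 0.23, Acot7 (1370313_at) by 1.27 ± 0.17 and Acot8 by 1.16 ± 0.12 (adjusted p = 0.00187, 0.00085 and 7.43e-05), each with all 5 episesamin rats above all 5 sesamin rats. For Acot4 the difference was 1.03 ± 0.20 (adjusted p = 0.0143), with 4 of 5 episesamin rats above the highest sesamin rat. This Acot4 call was lost with median scaling (adjusted p = 0.0782), with unscaled arrays (adjusted p = 0.363), without the dim arrays (adjusted p = 0.0747) and with only these diets fitted (adjusted p = 0.0929), at differences of 0.87 to 1.17.

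The Acot2 probe sets gave smaller differences between the epimers. By 1391433_at episesamin was higher by 0.87 ± 0.13 (adjusted p = 0.00187), without overlap. By 1388210_at the difference was 0.58, with a 95% interval of 0.11 to 1.06, and by 1384115_at 0.44, with an interval of 0.01 to 0.87 (adjusted p = 0.31 and 0.416). Acot12 differed by 0.37, with an interval of -0.03 to 0.77, and Acot13 by -0.08, with an interval of -0.26 to 0.11, and neither passed (adjusted p = 0.468 and 0.791). The median over the 12 probe sets was 0.95, and that of all tested probe sets -0.01. With p-values adjusted over all 6 comparisons together, 7 Acot probe sets were again called. With arrays left unscaled 2 were called (Acot1 and the shared probe set), and the median of all probe sets moved to -0.17.

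Sesamolin against sesamin gave the same count, 7 of 12 higher, where 0.56% of all tested probe sets were higher, and none lower, where 0.46% of all were lower. At 6 the groups did not overlap, against 1.78% of all. Acot1 was higher by 2.35 ± 0.36 (adjusted p = 0.00183) and the shared probe set by 2.28 ± 0.25 (adjusted p = 7.95e-05). Acot8 was higher by 1.27 ± 0.12 (adjusted p = 3.48e-05), the lowest adjusted p of the Acot probe sets in this comparison. Acot3 was higher by 1.33 ± 0.23, Acot7 (1370313_at) by 1.22 ± 0.17 and Acot2 (1391433_at) by 0.69 ± 0.13 (adjusted p = 0.00647, 0.000876 and 0.011). Acot4 was at the threshold, with a difference of 0.84 ± 0.20 (adjusted p = 0.0492) that was lost in 25 of 36 alternatives and for which 3 of 5 sesamolin rats lay above the highest sesamin rat. With only the arrays of these diets fitted, the calls of Acot1, Acot2 (1391433_at), Acot3 and Acot7 (1370313_at) were also lost, at unchanged differences (adjusted p = 0.0839, 0.0748, 0.0727 and 0.0522). Without the dim arrays, those of Acot1, at 2.54, and Acot2 (1391433_at), at 0.70, were lost (adjusted p = 0.0517 and 0.0757). Unscaled arrays ended the calls of Acot2 (1391433_at), Acot3 and Acot7 (1370313_at), at differences of 0.57, 1.19 and 1.10 (adjusted p = 0.34, 0.161 and 0.0764). Without the 4 arrays numbered 1, Acot2 (1391433_at) was not called at 0.70 (adjusted p = 0.0621). Acot8 and the shared probe set were called under each of these settings. Both comparisons with sesamin share the sesamin arrays.

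Sesamolin against episesamin gave no Acot call (limma, 0 of 12 at an adjusted p below 0.05, and also 0 of 12 at an unadjusted p below 0.05, where 1166 of all tested probe sets were below it). Of all tested probe sets 0.00475% were called higher and 0% lower in this comparison. The groups overlapped at all 12 Acot probe sets, while all 5 sesamolin rats lay above all 5 episesamin rats at 0.366% of all. The difference was -0.12 for Acot1, with a 95% interval of -0.87 to 0.63, and -0.30 for the shared probe set, with an interval of -0.83 to 0.22. For Acot8 it was 0.11, with an interval of -0.14 to 0.36, and for Acot7 (1370313_at) -0.04, with an interval of -0.40 to 0.32. Over the 12 probe sets the intervals reached from -0.87, for Acot1, to 0.85, for Acot7 (1388075_at). The Acot1 interval is widened by the spread of the sesamin rats, which are not part of this comparison. Probe set 1388075_at lay near the filter level. The intervals therefore limit the difference at each probe set on its own, without showing that sesamolin and episesamin act alike.

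**Figure D3:**
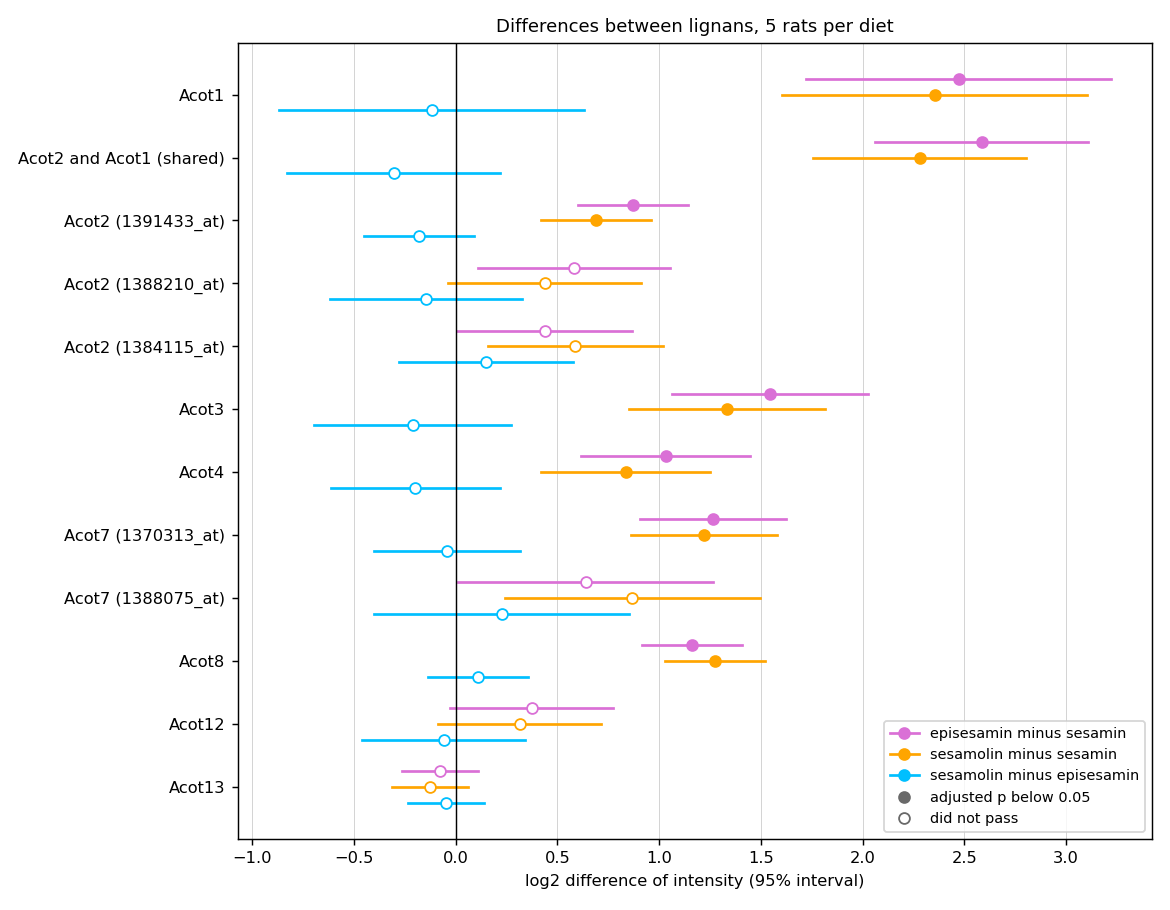
Log2 difference in intensity between the lignans for the 12 Acot probe sets, with 95% intervals (limma, 5 rats per diet); filled points have an adjusted p below 0.05. Episesamin minus sesamin and sesamolin minus sesamin lie right of 0 for 11 of the 12 probe sets, and sesamolin minus episesamin has no filled point.

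The order of the diets by mean intensity was episesamin, sesamolin, sesamin, lignan-free for Acot1, the shared probe set, Acot2 (1388210_at and 1391433_at), Acot3, Acot4, Acot7 (1370313_at) and Acot12. For Acot2 (1384115_at) and Acot8 sesamolin came before episesamin, and the difference between these neighbours passed at no probe set. The order was sesamolin, episesamin, lignan-free, sesamin for Acot7 (1388075_at) and lignan-free, sesamin, episesamin, sesamolin for Acot13, neither of which was called in any comparison. The difference between sesamin and lignan-free passed at all probe sets of type I genes and at none of Acot7, Acot8, Acot12 or Acot13. As a share of the episesamin difference from the lignan-free diet, on the log2 scale, the sesamin difference was 72.0% for Acot1, 56.5% for the shared probe set, 80.5%, 68.5% and 74.9% for the Acot2 probe sets 1388210_at, 1391433_at and 1384115_at, 54.7% for Acot3 and 63.4% for Acot4. It was 27.5% for Acot7 (1370313_at), 18.6% for Acot8 and 50.1% for Acot12. These shares are a description and were not tested against each other.

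Acot2, Acot1, Acot4 and Acot3 follow each other in this order on chromosome 6 of the rat assembly GRCr8, with Rpl23al8 between Acot1 and Acot4, whereas Acot8 lies on chromosome 3, Acot7 on 5, Acot12 on 2 and Acot13 on 17. PPAR alpha binds DNA with its partner RXR at direct repeats of AGGTCA with a single base between them. RefSeq's GRCr8 promoter table (250 bases before to 50 bases after each start) held windows for all 8 members, and for Acot7 a pair of them. The full repeat, AGGTCANAGGTCA, was searched on both strands and was in 0 of the 9 windows and in 0.0538% of all 33469 windows. The core of the repeat, GGTCANAGGTC, which lies inside the full one and was chosen after the sequences had been seen, was in the windows of Acot4 and Acot8 and in 0.185% of all windows. The unit AGGTCA alone was in the windows of Acot4, Acot8 and Acot12 and in 16.2% of all windows, and in Acot4 and Acot8 it overlaps the core. The Acot1 window is shown because that gene gave the largest difference, and the other windows because they hold the core, which is in capitals. The Acot1 window is chr6:109367024-109367323 (plus strand), that of Acot4 chr6:109399604-109399903 (plus strand) and that of Acot8 chr3:173962139-173962438 (minus strand), each printed 5′ to 3′ in the direction of the gene.
Acot1: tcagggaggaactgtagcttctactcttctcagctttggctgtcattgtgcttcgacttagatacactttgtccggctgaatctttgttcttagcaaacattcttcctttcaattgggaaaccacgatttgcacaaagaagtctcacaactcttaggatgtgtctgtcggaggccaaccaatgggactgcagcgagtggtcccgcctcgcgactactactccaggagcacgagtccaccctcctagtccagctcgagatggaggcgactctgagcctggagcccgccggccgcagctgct
Acot4: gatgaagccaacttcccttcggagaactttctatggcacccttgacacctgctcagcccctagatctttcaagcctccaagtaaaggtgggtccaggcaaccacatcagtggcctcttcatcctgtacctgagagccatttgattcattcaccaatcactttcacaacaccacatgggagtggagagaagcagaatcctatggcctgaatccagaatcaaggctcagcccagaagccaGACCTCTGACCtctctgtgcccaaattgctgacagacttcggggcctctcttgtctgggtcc
Acot8: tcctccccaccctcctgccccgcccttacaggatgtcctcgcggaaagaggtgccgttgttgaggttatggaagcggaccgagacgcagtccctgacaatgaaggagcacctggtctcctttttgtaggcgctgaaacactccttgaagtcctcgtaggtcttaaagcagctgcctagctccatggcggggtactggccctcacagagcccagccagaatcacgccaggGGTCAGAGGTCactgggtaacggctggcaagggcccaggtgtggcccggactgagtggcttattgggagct
In Acot4 the core runs from base -12 to -2 from the start, on the opposite strand, and in Acot8 from -21 to -11, on the strand of the gene. Acot4 was called with all 3 lignans, Acot8 with episesamin and sesamolin, and Acot1, whose window holds neither the core nor AGGTCA, with all 3 lignans. A match is a description of letters and not a binding site, and its absence from these 300 bases says nothing of more distant sequence.

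Other acyl-CoA hydrolases, a list of 16 genes outside the 8 members, had 11 genes on the array, of which 8 were tested. Of these, 1 was higher with sesamin, 2 with episesamin and 2 with sesamolin, and none was lower. Over all tested probe sets, 0.256%, 1.96% and 1.93% were called higher and 0%, 1.21% and 1.72% lower. The only gene of the list called with sesamin was Nudt7, the coenzyme A diphosphatase of peroxisomes, which is not a thioesterase. Nudt7 was higher by 0.90 with sesamin, 1.77 with episesamin and 1.76 with sesamolin (adjusted p = 0.000571, 1.46e-08 and 1.57e-08). Its mean intensity was 668 with sesamin, 1215 with episesamin, 1215 with sesamolin and 352 without lignan. Hibch, the 3-hydroxyisobutyryl-CoA hydrolase of valine breakdown, was higher by 0.71 with episesamin and 0.82 with sesamolin (adjusted p = 0.00666 and 0.00168). The median of the list was 0.08, 0.08 and 0.37 for the 3 lignans.

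Acyl-CoA synthetases work in the opposite direction. Of 22 listed genes 18 were tested, and 0 were called with sesamin. With episesamin 3 were higher and 1 lower, where 1.96% of all tested probe sets were higher and 1.21% lower. With sesamolin 3 were higher and 1 lower, where 1.93% of all were higher and 1.72% lower. Slc27a2, the very long-chain acyl-CoA synthetase of peroxisomes and endoplasmic reticulum, was higher by 0.61 and 0.64 with episesamin and sesamolin (adjusted p = 0.000113 and 6.68e-05). Acsl3, a long-chain synthetase, was higher by 1.20 and 0.87, and Acsm5, a medium-chain synthetase, by 1.90 and 1.58. Acss2, which makes acetyl-CoA in the cytosol, was lower, with differences of -0.86 and -0.71 (adjusted p = 0.0149 and 0.0419), and is named as the only lower one after its values were seen. Over the alternatives, for each of these diets, the count of higher synthetases ran from 1 to 5 and that of lower ones from 0 to 2. The list's medians were 0.15, 0.21 and 0.22 for sesamin, episesamin and sesamolin.

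Genes of peroxisomal and mitochondrial fatty acid oxidation, all 28 on the array being tested, had 14 members higher with sesamin, 22 with episesamin and 21 with sesamolin, and none lower. Of all tested probe sets, 0.256%, 1.96% and 1.93% were called higher and 0%, 1.21% and 1.72% lower. The median differences of the 28 genes were 0.44, 1.01 and 0.81. Eci1, an enoyl-CoA isomerase of mitochondria, was higher by 2.04, 2.77 and 2.77, and Crot, the carnitine octanoyltransferase of peroxisomes, by 1.81, 2.49 and 2.50. Ech1, a dienoyl-CoA isomerase, came next by adjusted p with sesamin, where it was higher by 1.69 (adjusted p = 1.15e-06). Crat, carnitine acetyltransferase, came next with episesamin and sesamolin, at 3.49 and 3.37 (adjusted p = 9.49e-10 and 1.58e-09). Without normalization between arrays these counts fell to 6, 13 and 13.

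**Figure D4:**
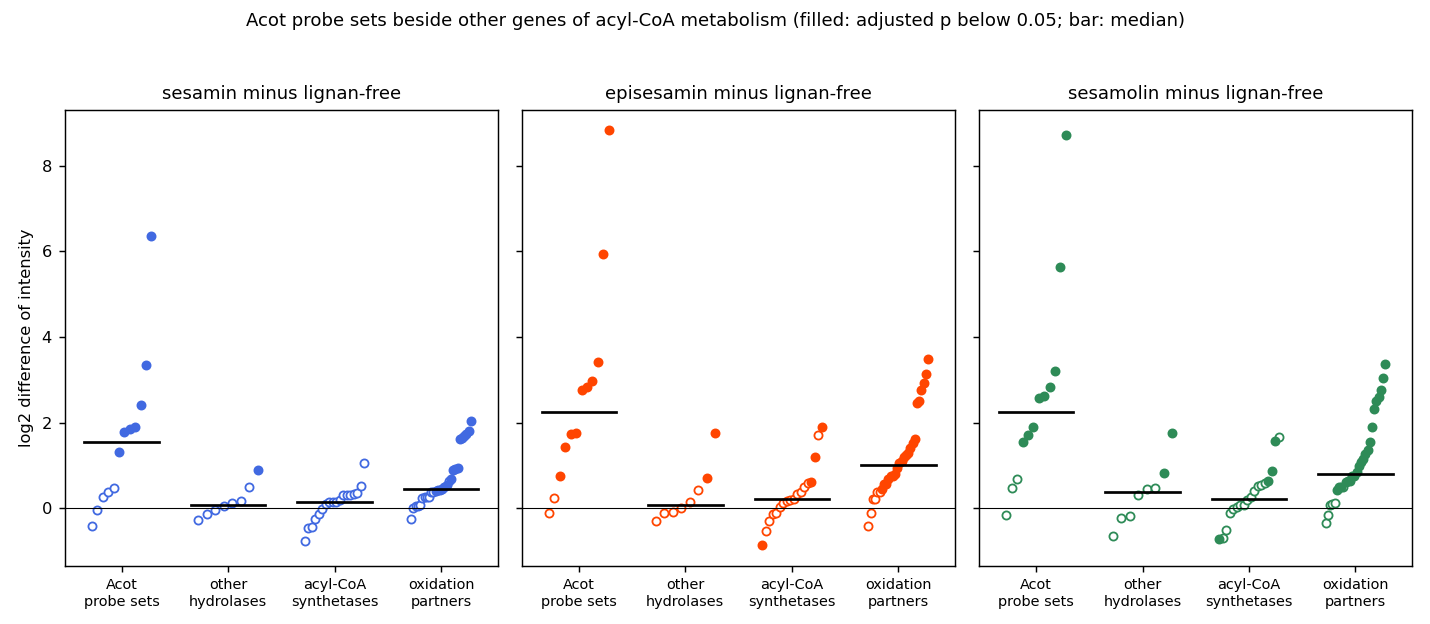
Log2 difference in intensity of each lignan diet minus the lignan-free diet for the 12 Acot probe sets beside 8 other acyl-CoA hydrolases, 18 acyl-CoA synthetases and 28 genes of fatty acid oxidation, 1 point per probe set or gene; filled points have an adjusted p below 0.05 and the bar is the list median. The Acot medians of 1.55, 2.26 and 2.24 lie above those of the oxidation genes at 0.44, 1.01 and 0.81. The units differ, since some Acot genes enter by several probe sets and each oxidation gene by 1.

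Genes with the most similar response were found as those with the smallest Euclidean distance between their 3 log2 differences (each lignan minus lignan-free) and those of the member, over 11559 genes and 20 arrays. Acot2 (1391433_at) was nearest to Eci1, Crot and Pex11a, at distances of 0.23, 0.30 and 0.31. Acot4 had the same neighbours in another order, Pex11a, Eci1 and Crot, at 0.19, 0.30 and 0.35. Acot3 was nearest to Colq, Crat and Ehhadh, at 0.23, 0.23 and 0.39. Acot7 (1370313_at), with a small sesamin difference, was nearest to Cd36, Acsm2 and Bbs2, at 0.14, 0.15 and 0.24. The differences of Acsm2 did not pass for any lignan (adjusted p = 0.964, 0.0531 and 0.0545). Acot8 was nearest to Krt23, Aqp7 and Abhd1, at 0.17, 0.19 and 0.25. No gene came near Acot1: the closest, Hdc, was 7.63 away, with differences of 2.05, 4.28 and 4.35 where those of Acot1 were 6.36, 8.83 and 8.71. The distances describe these arrays only.

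Markers of other liver cells were called lower on some diets. Of all tested probe sets, 0% were called lower with sesamin, 1.21% with episesamin and 1.72% with sesamolin. Of 10 Kupffer cell and macrophage markers 8 were on the array, none was below the filter level on every array, and 0 were lower with sesamin, 1 with episesamin (C1qa) and 4 with sesamolin (C1qa, C1qc, Clec4f and C1qb). Their summed level was 4286 to 6917 with sesamin, 4452 to 5369 with episesamin, 3430 to 5101 with sesamolin and 6406 to 7096 without lignan. Of 6 endothelial markers on the array, 0, 2 and 2 were lower with sesamin, episesamin and sesamolin, Kdr and Lyve1 in both cases. Their sums were 2631 to 2822 with sesamin, 2197 to 2541 with episesamin, 2147 to 2652 with sesamolin and 2745 to 3172 without lignan. Among 10 hepatocyte markers Ass1 alone was lower, with episesamin and sesamolin. None of the 9 stellate cell, 4 bile duct, 6 lymphocyte and neutrophil, 2 adipocyte and 3 red blood cell markers tested was called in these comparisons. The part of these markers in the Acot differences was not tested.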

How the data were processed

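RNA of 20 rat livers, 5 per diet, was measured on Affymetrix arrays from biotin-labelled cRNA, 1 rat per array and none pooled, per the labels' protocols. The authors deposited linear intensity values for 31099 probe sets, and array means differed. Their software, and whether they had scaled the arrays, were not given in the sources used here. Members were found through the platform annotation, in which 20832 probe sets had 1 symbol, 436 several and 9831 none listed.

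The deposited intensity values were quantile normalized, 5.85 (the 20th percentile) was added and log2 was taken. The 57 control probe sets were left out. A probe set was tested if at least 5 arrays read above 17.8, the 40th percentile. In limma 3.58.1 (R 4.3.3), the means of the 4 diets were estimated together from the 20 arrays, with 16 degrees of freedom from residuals and 2.67 from the prior. The 6 comparisons used two-sided moderated tests and the F test covered the 4 diets, with Benjamini-Hochberg adjustment within each. Intervals cover 95%. The fit was also run on simulated data. These had independent noise and the same spread in all diets, so they cannot show how the fit handles spreads that differ between diets. Where a diet lay below the filter level, a fold was taken from the mean log2 intensities, without an interval. Arrays of that diet that read less were raised to the filter level.

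All member probe sets are named. From the lists of other hydrolases, synthetases and oxidation genes, up to 3 called genes with the lowest adjusted p are named per lignan against lignan-free (and Acss2, named after its values were seen), each by its probe set of highest mean, and for each member gene called over the diets the 3 nearest genes. The members, lists and markers were chosen with earlier results of these data known. The labels do not describe the replicate numbers as a pairing of rats. Of the 5 numbers, number 1 alone had all 6 of its correlations of deviations above 0.1, at 0.121 to 0.229. What the arrays numbered 1 have in common was not tested. Alternatives were other scaling, offsets and filters, 1 probe set per gene, other variance settings, brightness as a covariate, leaving out dim arrays, only the groups compared, the replicate block and leaving out each array. Adjustment over all comparisons together, leaving out the 4 arrays numbered 1 and a covariate for the actin 3' to 5' ratio were added after seeing the data.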

Additional observations from a re-analysis of the deposited data

Results flagged for a closer look

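Among 48 sets of 5 rats (12 Acot probe sets on 4 diets), 5 held a rat set apart from the other 4 by Dixon's test at 95%. Chance alone flags about 1 set in 20, here 2.4. Episesamin replicate 1 had an intensity of 1071 for Acot2 (1384115_at), against 565 to 642 in the other episesamin rats. The actin 3' to 5' ratio of its array was 2.69, the highest of the episesamin arrays, which ran from 1.92 to 2.69. The part of this ratio in the high value was not tested. Sesamolin replicate 5 had 1130 for Acot12, against 548 to 672 in the other sesamolin rats. Sesamolin replicate 2, on the dimmest array of the study with a mean raw intensity of 159, had 191 for Acot13, against 239 to 257 in the other sesamolin rats. Lignan-free replicate 5 had 264 for Acot2 (1384115_at), against 173 to 189 in the other lignan-free rats, and lignan-free replicate 2 had 262 for Acot8, against 226 to 233.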

How the results depend on the processing

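Each of the 72 differences (12 probe sets, 6 comparisons) was recomputed under up to 36 alternatives, 20 of which leave out a single array. Of 2562 values, 2477 kept their direction and their side of the threshold, 63 were no longer called and 8 became called. Another 14, none of them called, changed sign. Leaving out each array in turn gave 7 called Acot probe sets for sesamin, 9 to 10 for episesamin and 9 to 10 for sesamolin against lignan-free, 7 for episesamin and 6 to 7 for sesamolin against sesamin, 0 for sesamolin against episesamin, and 9 to 10 over the 4 diets.

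With 1 probe set per gene, where 8 were measured, 4 were called with sesamin. Without normalization between arrays 2 were called for episesamin against sesamin and 3 for sesamolin against sesamin. Sesamolin against sesamin gave 4 without the dim arrays and 2 with only its own arrays in the fit. The causes were not tested, beyond the fewer probe sets or arrays that the alternatives themselves use. Unscaled arrays moved the median of all probe sets to -0.06, -0.23 and -0.20 for sesamin, episesamin and sesamolin against lignan-free, and median scaling to -0.07, -0.11 and -0.09.

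The sign changes against lignan-free were those of Acot7 (1388075_at) with episesamin, at -0.043 with brightness as a covariate and -0.070 without the dim arrays. For sesamolin against episesamin, Acot7 (1370313_at) turned to 0.0096 with median scaling, 0.013 unscaled, 0.17 without the dim arrays and 0.036 with the actin ratio as a covariate. Acot2 (1384115_at) turned to -0.096 with the actin ratio, and Acot13 to 0.071 without the dim arrays. In the same comparison, leaving out single arrays gave -0.12 to 0.060 for Acot7 (1370313_at), above 0 without episesamin replicate 4 or sesamolin replicate 2. It gave -0.0090 to 0.46 for Acot7 (1388075_at), below 0 without episesamin replicate 1. It gave -0.24 to 0.024 for Acot12, above 0 without sesamolin replicate 3 or 4, and -0.083 to 0.022 for Acot13, above 0 without sesamolin replicate 2.

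Over all probe sets, 54, 666 and 769 were called for sesamin, episesamin and sesamolin against lignan-free and 175, 215 and 1 for the pairs of lignans. Unscaled arrays gave 24, 280 and 315, and 20, 28 and 0. Fitting only the groups compared gave 38, 381 and 416, and 88, 47 and 0. Leaving out the dim arrays gave 62, 322 and 434, and 95, 105 and 0. Leaving out the 4 arrays numbered 1 gave 35, 374 and 405, and 94, 75 and 0. Trended and robust variances gave 94, 938 and 1071, and 264, 367 and 0. Adjustment over all comparisons gave 93, 425 and 467, and 193, 230 and 26. For episesamin and sesamolin against sesamin, median scaling gave 68 and 97 and no filter 99 and 113, the actin ratio gave 96 for episesamin, and the filter at the 60th percentile gave 347 for sesamolin. Leaving out single arrays gave as few as 98 for episesamin (without sesamin replicate 3) and 110 for sesamolin (without sesamolin replicate 3), and, against lignan-free, 413 for episesamin (without lignan-free replicate 4) and 503 for sesamolin (without lignan-free replicate 5).

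The replicate block, for numbers that the labels do not describe as a pairing, gave 7, 9 and 9 Acot calls against lignan-free and 7, 7 and 0 between lignans. Under it Acot12 was no longer called with episesamin, at a difference of 0.75 (adjusted p = 0.054). Precision is limited by 5 rats per diet and, for Acot1 without lignan and Acot7 (1388075_at), by signal near or below the filter level.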
